A study of Caenorhabditis elegans with 12 samples.

Results

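The difference between 2 gene expression responses in the nematode Caenorhabditis elegans was measured, the response to feeding labelled bcat-1 RNAi in the strain CF1038 minus the response to feeding labelled daf-7 RNAi in the strain TU3311. All 12 libraries of the study entered, made from total RNA of whole hermaphrodites aged 5 days, 3 in each of 4 groups. CF1038 carries the deletion allele daf-16(mu86), DAF-16 being the FOXO transcription factor of the insulin pathway, so bcat-1 RNAi and its vector control L4440 were both compared in the absence of normal DAF-16. TU3311 carries a sid-1 transgene described by the labels as giving neuronal RNAi, and its animals were fed daf-7 RNAi or L4440. No strain received both RNAi feedings, and therefore RNAi target and strain cannot be told apart in any difference given here. The titles of all CF1038 libraries share a number that differs from the number shared by all TU3311 titles. The labels do not explain these title numbers, and whatever they stand for cannot be told apart from strain, also where levels are compared between strains. Nothing in the labels tells if replicate libraries stem from separate cultures. The p-values as reported measure only how the ratio of RNAi to vector varied between the pairs of libraries described below.

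In RNAi by feeding, worms eat bacteria that make double-stranded RNA, which spreads between cells and lowers the matching transcript. BCAT-1 is the aminotransferase that starts the breakdown of leucine, isoleucine and valine. DAF-7 is a TGF-beta ligand made in sensory neurons, which signals food and low crowding and keeps larvae out of the dauer state; it also acts on feeding, egg laying and fat in adults. Feeding with L4440, the empty plasmid, is the usual control for both.

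A response is the log2 ratio of RNAi to vector, and a positive difference means that the ratio was higher with bcat-1 RNAi in CF1038 than with daf-7 RNAi in TU3311. Neighbouring library numbers were treated as pairs of 1 vector and 1 RNAi library, 3 pairs in each strain, and levels are given as CPM, counts scaled by library size. Of 46748 gene identifiers 16618 had enough counts to be tested. The response differed for 4349 genes at a Benjamini-Hochberg adjusted p under 0.05 (edgeR quasi-likelihood test), which is 26.2% of those tested. It was higher with bcat-1 RNAi for 2490 genes (15%) and lower for 1859 genes (11.2%). A difference of at least 2-fold was found for 1646 of the higher genes and 167 of the lower genes, and at least 4-fold for 247 and 35. The labels do not give this pairing, which rests on the values, and without it 18 genes passed, 17 higher and 1 lower. The split between higher and lower also followed the scaling, with 1778 higher and 3869 lower under RLE size factors and 3603 and 619 under library totals. In all 4 scalings tried, 1778 genes were called higher and 495 lower. In all 15 other settings that kept the pairs, which include leaving out each pair in turn, 421 stayed higher and 207 lower.

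The differing genes were almost wholly genes that changed between the CF1038 groups. In CF1038 alone 7356 genes (44.3%) changed, of which 4275 rose (25.7%) and 3081 fell (18.5%). In TU3311 alone 1 gene (0.00602%) changed, the lipase-related lips-11, which fell. No gene rose there in this edgeR test. At an unadjusted p under 0.05, 262 genes were higher and 236 lower. This is a smaller share of the 16618 genes tested than the 0.05 that would pass with no response at all. DESeq2 called 13 risen and 21 fallen genes, edgeR with no expression filter 9 and 19, and edgeR without the second TU3311 pair 1 and 1. Of the 2490 genes with a higher difference, 2414 (96.9%) rose with bcat-1 RNAi on its own, and of the 1859 with a lower difference 1826 (98.2%) fell on their own. The median log2 response of the higher genes was 1.05 to bcat-1 RNAi and -0.11 to daf-7 RNAi, and that of the lower genes was -0.51 and 0.085. Across all tested genes the SD of the log2 response was 0.702 for bcat-1 RNAi and 0.238 for daf-7 RNAi. Both responses had the same sign in 39.9% of genes, and across genes, which are not independent replicates, Pearson's r between them was -0.0348 and Spearman's rho -0.152.

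**Figure D1:**
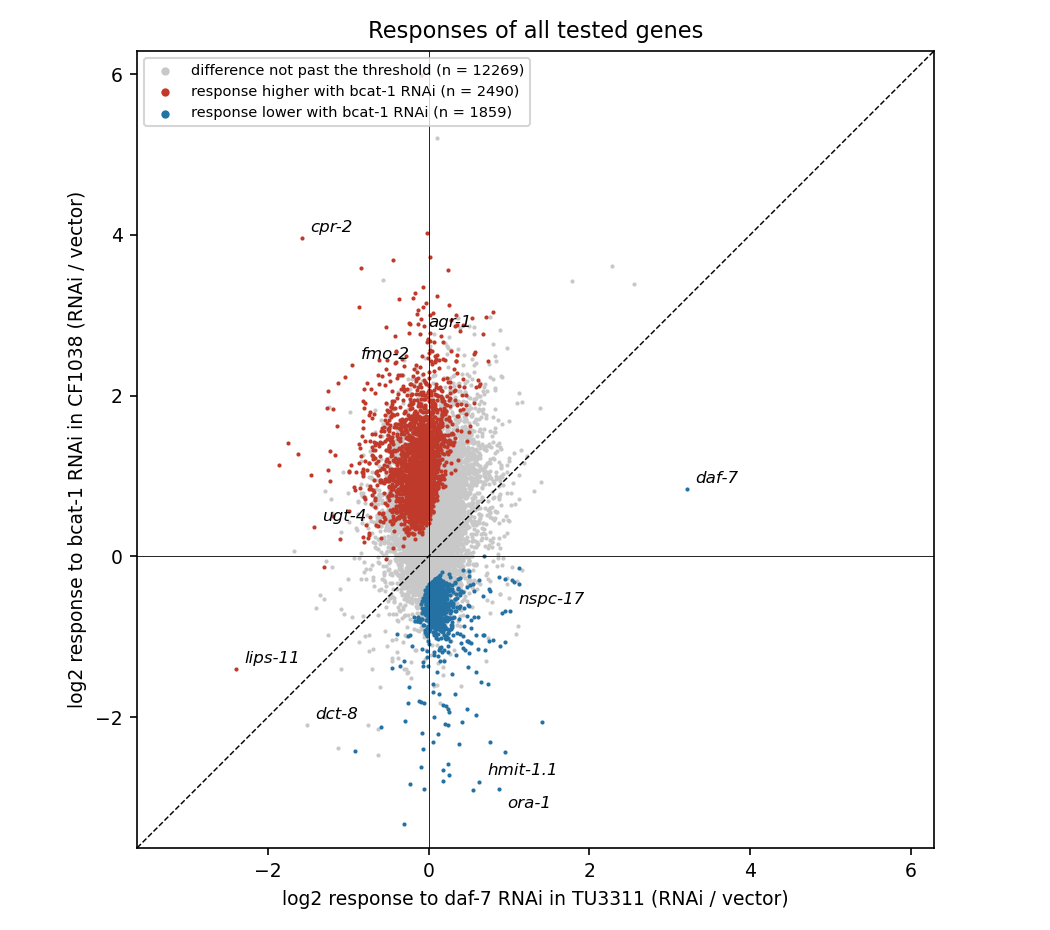
Log2 response to daf-7 RNAi in TU3311 (horizontal) against log2 response to bcat-1 RNAi in CF1038 (vertical) for 16618 genes, coloured by whether their difference passed an adjusted p of 0.05; the dashed line marks equal responses. The 2490 red and 1859 blue genes spread along the vertical axis, lips-11 lies at the lower left, and daf-7 lies far to the right.

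The targeted genes were not lower in the libraries labelled with their RNAi. For bcat-1 (WBGene00001149, X:12877480-12880328, build WBcel235) the CF1038 vector libraries had 131, 151 and 137 CPM and their bcat-1 RNAi partners 210, 166 and 222 CPM. The TU3311 vector libraries had 242, 169 and 158 CPM and the daf-7 RNAi libraries 211, 164 and 155 CPM. Every CF1038 pair was thus higher with bcat-1 RNAi, and every TU3311 pair slightly lower with daf-7 RNAi. The log2 difference was 0.59 ± 0.16 (SE, adjusted p = 0.0271), and it passed in 9 of 16 other settings.

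For daf-7 (WBGene00000903, III:811844-813773) the TU3311 vector libraries had 12, 8.38 and 6.21 CPM and the daf-7 RNAi libraries 115, 31.4 and 137 CPM. In CF1038 it was at 1.5, 2.55 and 1.83 CPM with vector and at 3.31, 3.74 and 3.39 CPM with bcat-1 RNAi. All daf-7 RNAi libraries exceeded all other libraries, and in CF1038 the RNAi and vector libraries did not overlap either. The log2 response was 3.21 ± 0.40 to daf-7 RNAi (adjusted p = 0.0970) and 0.84 ± 0.44 to bcat-1 RNAi (adjusted p = 0.145), neither of which passed. In edgeR without the second TU3311 pair both passed, at 3.85 (adjusted p = 0.000765) and 0.84 (adjusted p = 0.0271). As reported, with all pairs, the difference of the responses was -2.37 ± 0.59 (adjusted p = 0.0218). Reads of the fed construct in these counts and an exchange of labels between RNAi and vector cannot be told apart here. The libraries are therefore named below by their labels, and an exchange within a strain would turn the sign of every response given for it. The difference for daf-16 was 0.25 ± 0.13 (adjusted p = 0.186) and that for sid-1 -0.23 ± 0.14 (adjusted p = 0.218).

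Libraries differed in ways that move with the groups. They held 30130249 to 45343624 counts. The 3 CF1038 vector libraries had 13542 to 14693 genes with at least 10 counts, their bcat-1 RNAi partners 15468 to 16028, and the TU3311 libraries 15434 to 16809. Normalisation factors were 0.863 to 0.899 in the CF1038 vector libraries and 0.960 to 1.19 in all others. Leaving out the first CF1038 pair brought the count of differing genes to 859, and leaving out the second TU3311 pair to 2032. Leaving out the second CF1038 pair gave 2356 and the first TU3311 pair 2647. The part of these library features in the results was not tested.

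The widest positive difference was that of cpr-2 (WBGene00000782, V:16532936-16534100), a cathepsin B-like cysteine protease. It went from 0.50, 0.338 and 0.747 CPM with vector to 10.6, 4.8 and 9.82 CPM with bcat-1 RNAi. In TU3311 it was at 0.967, 3.13 and 3.35 CPM with vector and 0.570, 1.03 and 0.704 CPM with daf-7 RNAi. All 3 CF1038 pairs were higher with RNAi and all 3 TU3311 pairs lower. The log2 difference was 5.53 ± 0.38 (adjusted p = 0.000286), made of 3.96 in CF1038 and -1.57 in TU3311, and it passed in all 16 other settings. The related proteases cpr-1, cpr-5 and cpr-8 had differences of 1.49, 1.42 and 1.37, and cpr-9 one of -0.88.

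Expression of fmo-2 (WBGene00001477, IV:10682524-10684367), a flavin-containing monooxygenase known to be induced by hypoxia and dietary restriction, was 8.19, 13.8 and 7.07 CPM with vector and 58, 51.1 and 39.1 CPM with bcat-1 RNAi. In TU3311 the vector libraries had 3.71, 9.03 and 16 CPM and the daf-7 RNAi libraries 2.33, 2.52 and 12.0 CPM. The CF1038 groups did not overlap, whereas those of TU3311 did, although each daf-7 RNAi library was below its partner. This gave a log2 difference of 3.33 ± 0.37 (adjusted p = 0.00292).

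The genes agr-1 and cla-1 stood among the differences with the smallest p. For agr-1, the worm agrin, CF1038 had 6.27, 6.19 and 7.58 CPM with vector and 35.5, 60 and 43.6 CPM with bcat-1 RNAi, while the 6 TU3311 libraries lay between 14.7 and 23.6 CPM. The bcat-1 RNAi libraries were above and the CF1038 vector libraries below all TU3311 libraries. The log2 difference was 2.88 ± 0.22 (adjusted p = 0.000405). For cla-1, the presynaptic active zone protein Clarinet, CF1038 rose from 6.62, 7.25 and 8.49 CPM to 26.9, 39.6 and 40.0 CPM, and the TU3311 libraries held 14.6 to 24.3 CPM. Its log2 difference was 2.43 ± 0.19 (adjusted p = 0.000405). The same order of groups, with TU3311 between vector and RNAi of CF1038, was thus seen in both genes. Both genes overlap exons of genes on the other strand, and the strand setting of the counting is not given in the sources used here.

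The other genes of the 15 widest positive differences were the neuropeptide-like nlp-66 (3.18), the C-type lectin clec-47 (3.17), C05E7.3 (3.16), C05C12.1 (3.12), C30A5.10 (3.04), C27H5.6 (3.02), Y50E8A.5 (3.02), Y87G2A.16 (2.95), the HMG-box gene hmg-6 (2.78), the NeuroD-related bHLH factor cnd-1 (2.72), the phosphate transporter family gene pitr-5 (2.71) and ZK930.6 (2.68). For these 15 genes the response to bcat-1 RNAi was between 1.84 and 3.96. The counts of C30A5.10 and C27H5.6 are uncertain because they overlap snb-5 and pdl-1.

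The widest negative difference was that of ora-1 (WBGene00003879, IV:7977890-7979020), named for its relation to an Onchocerca antigen. It went from 24.8, 10.1 and 22.4 CPM to 1.67, 3.57 and 2.23 CPM in CF1038, and from 35.7, 6.58 and 7.05 CPM to 84.4, 15.1 and 7.61 CPM in TU3311. Every CF1038 pair fell and every TU3311 pair was higher with RNAi, the last by little. This gave a log2 difference of -3.77 ± 0.56 (adjusted p = 0.00484).

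The transporter hmit-1.1 (WBGene00013073, V:18516789-18523875), a proton-coupled myo-inositol transporter induced by high salt, came next. It went from 12.5, 27.1 and 8.46 CPM to 2.43, 3.48 and 0.967 CPM with bcat-1 RNAi, and from 13.5, 5.88 and 5.86 CPM to 21.3, 9.45 and 8.60 CPM with daf-7 RNAi. The pair log2 ratios were -2.34, -2.94 and -3.06 in CF1038 and 0.65, 0.68 and 0.55 in TU3311. The log2 difference was -3.43 ± 0.22 (adjusted p = 0.000286). Among 14 osmotic response genes tested, 5 had a lower difference, among them the glycerol-3-phosphate dehydrogenase gpdh-1 (-1.15 ± 0.26) and gfat-1 of the hexosamine pathway (-0.90 ± 0.14), and 2 a higher one, among them the aquaporin aqp-1 (1.58 ± 0.35).

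The remaining genes of the 15 widest negative differences were C45B2.1 (-3.08), F48C1.9 (-3.02), srlf-34 (-2.98), the fatty acid and retinol binding gene far-3 (-2.85), which overlaps far-5, the caenacins cnc-7 (-2.84), cnc-6 (-2.60), cnc-2 (-2.35) and cnc-4 (-2.33), the C-type lectin clec-74 (-2.82), the carnitine palmitoyltransferase cpt-3 (-2.52), daf-7, the infection response gene irg-5 (-2.34) and the antimicrobial peptide gene nlp-34 (-2.32). Of the 30 widest differences in both directions, 22 passed in each of the 15 other settings that kept the pairs and 7 passed without the pairing.

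**Figure D2:**
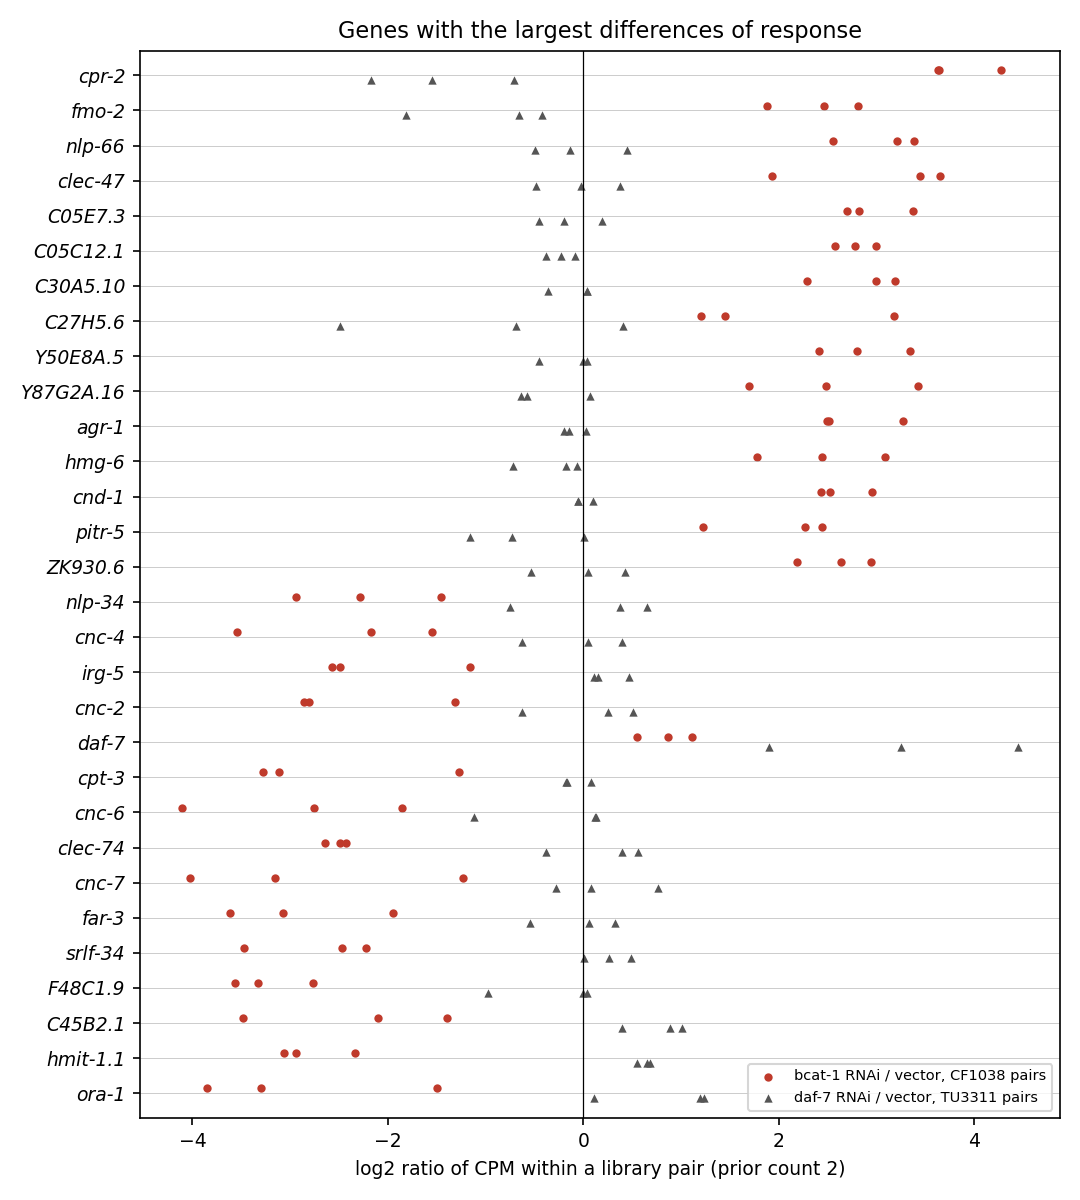
Log2 ratio of CPM in each of the 6 library pairs (horizontal) for the 15 widest positive and 15 widest negative differences that were called, had a mean of at least 2 CPM and did not overlap between strains. Red circles are CF1038 pairs and grey triangles TU3311 pairs; for daf-7 all TU3311 pairs lie farther from 0 than the CF1038 pairs, and for most other genes the CF1038 pairs do.

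Gene groups were described by how many members passed and by their median log2 difference, beside 15% higher, 11.2% lower and a median of 0.15 over all genes tested. These shares changed with the number of reads. From 1 to 5 CPM 28.3% of all genes were higher and 1.43% lower, with a median of 0.59. From 100 CPM upwards 2.92% were higher and 40.6% lower, with a median of -0.38. The lists were not matched for reads, and the part of read number in their counts was not tested. Genes of neurons were mostly on the positive side. Of 93 FMRFamide-like and neuropeptide-like genes tested, which encode peptide transmitters, 53 had a higher difference and 1 a lower one, with a median of 0.83. Examples were flp-25 (1.51 ± 0.22) and flp-15 (1.39 ± 0.23), and the lower member was nlp-39 (-1.36 ± 0.19). In all 4 scalings 38 were called higher and 1 lower. In all 15 other settings that kept the pairs 6 were called higher and 1 lower, and without the pairing 1 higher and 0 lower.

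Of 13 genes for neuropeptide processing and release 8 were higher, such as the dense-core vesicle factor unc-31 (1.04 ± 0.19) and the prohormone convertase egl-3 (0.71 ± 0.14). Among 26 genes of synaptic release 10 were higher and 2 lower. The presynaptic calcium channel gene unc-2 had 11.7, 12 and 16 CPM with CF1038 vector and 31.5, 40.5 and 38 CPM with bcat-1 RNAi. In TU3311 it held 33.3, 28.1 and 24.9 CPM with vector and 30.2, 25.1 and 22 CPM with daf-7 RNAi. Only the CF1038 vector libraries stood apart, at the low end. The difference was 1.61 ± 0.17 (adjusted p = 0.00214), and that of unc-10, the RIM scaffold, 1.5 ± 0.18.

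Among 110 neurotransmitter receptor genes 33 were higher and none lower, for instance the glutamate receptor subunit glr-5 (1.65 ± 0.23) and the nicotinic subunit acr-8 (1.99 ± 0.29). Among 127 ion channel genes 40 were higher and 4 lower, with the BK potassium channel slo-1 at 1.42 ± 0.21. Among 168 chemoreceptor genes tested, out of 1300 in the files, 24 were higher and 3 lower. The higher share was close to that of all genes and the lower share below it, with a median of 0.77.

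Genes of microtubules and cilia were on the same side. Of 60 tubulin and cilia genes tested, 35 were higher and 4 lower, with a median of 1.04, and 29 were higher in all 4 scalings. The beta-tubulin tbb-4 of ciliated neurons had a difference of 2.2 ± 0.35, the touch neuron beta-tubulin mec-7 one of 1.68 ± 0.26 and the intraflagellar transport gene osm-1 one of 1.12 ± 0.18. The median response of the list lay at 0.77 to 1.1 in the CF1038 pairs and at -0.11 to 0.01 in the TU3311 pairs.

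Transcription factors of neuronal fate were among the differing genes. The POU homeobox gene unc-86, needed for touch and serotonergic neurons, had 3.31, 3.07 and 4.86 CPM with CF1038 vector and 16.8, 27.4 and 20.7 CPM with bcat-1 RNAi, against 6.63 to 10.9 CPM in the TU3311 libraries. The bcat-1 RNAi libraries were above all others. Its log2 difference was 2.52 ± 0.28 (adjusted p = 0.00232). The NK-2-like ceh-27 had a difference of 2.49 ± 0.28 and the Pax-6 gene vab-3 one of 2.05 ± 0.27. Of 80 homeobox genes 26 were higher and 7 lower. Of 27 bHLH genes 6 were higher and none lower, among them the atonal relative lin-32 (2.27 ± 0.31) and neurogenin ngn-1 (1.92 ± 0.26).

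Of 212 nuclear hormone receptor genes 60 were higher and 3 lower, with nhr-168 (1.29 ± 0.23) and nhr-179 (1.71 ± 0.34) as examples. Of 361 F-box and MATH-domain genes 100 were higher and 11 lower. Of 40 histone genes 10 were higher and 1 lower, linker histones among them. For hil-7 the difference was 2.35 ± 0.29, for hil-3 1.96 ± 0.31 and for his-24 1.69 ± 0.30, while hil-8 had -1.36 ± 0.34.

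Cuticle collagens split by the number of their reads. Of 152 tested, 40 were higher and 10 lower, with a median of 1.04. Among the 7 collagens with a mean of at least 100 CPM, 6 were lower and 1 higher, and among the other 145 there were 39 higher and 4 lower. The collagen col-181 had 439, 365 and 155 CPM with CF1038 vector and 118, 139 and 86.5 CPM with bcat-1 RNAi. In TU3311 it had 917, 417 and 359 CPM with vector and 1170, 584 and 556 CPM with daf-7 RNAi. It fell in each CF1038 pair and was higher with RNAi in each TU3311 pair, with a difference of -1.87 ± 0.23 (adjusted p = 0.00303). The higher one of these 7, dpy-14, a collagen gene named for a short and stout mutant body, went from 65.0, 41.8 and 110 CPM to 302, 269 and 272 CPM in CF1038, and its difference was 2.01 ± 0.29. Collagen reads varied between pairs of 1 strain, with a median response of 0.47, 1.94 and 0.93 in the CF1038 pairs and 0.14, -0.02 and 0.93 in the TU3311 pairs. Near-identical collagens share reads, and single members are uncertain.

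Genes of epidermal defence were on the negative side. Of 19 nlp and caenacin antimicrobial genes tested none had a higher and 9 a lower difference, with a median of -1.28. Besides the caenacins named above, nlp-29, a standard reporter of fungal infection and wounding, had -2.03 ± 0.41. The median response of this list was -1.72, -0.93 and -0.07 in the 3 CF1038 pairs, so the third pair showed little of it. Of 21 genes of the PMK-1 p38 pathway and infection response, 4 were higher and 5 lower. The signalling component tir-1 was higher (1.15 ± 0.22) and the infection response genes irg-5, irg-6 (-1.84 ± 0.34) and irg-7 (-1.32 ± 0.15) were lower. C-type lectins, 138 tested, had members on both sides, 22 higher and 18 lower, shares close to those of all genes.

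Oocyte, eggshell and germline genes were lower. Of 31 oocyte and eggshell genes 26 had a lower difference and 1 a higher one, with a median of -0.70, and 16 were lower in all 4 scalings. The yolk receptor rme-2 had 1771, 1528 and 1426 CPM with CF1038 vector and 978, 780 and 870 CPM with bcat-1 RNAi. In TU3311 it had 387, 1067 and 852 CPM with vector and 392, 1051 and 1039 CPM with daf-7 RNAi. The CF1038 groups did not overlap, and the TU3311 libraries differed more between pairs than within them. Its log2 difference was -0.94 ± 0.14 (adjusted p = 0.00380).

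The chitin synthase chs-1 of the eggshell (-1.02 ± 0.14), the proteoglycan cpg-3 (-0.90 ± 0.12) and the oocyte regulator lin-41 (-1.1 ± 0.16) were further examples. Of 34 germline and P granule genes 21 were lower, such as car-1 (-0.96 ± 0.15) and meg-1 (-0.87 ± 0.13). Of 36 cell cycle and DNA replication genes 23 were lower and 1 was higher, and in all 4 scalings 4 were lower. In bulk samples, fewer cells of a type and less RNA per cell cannot be told apart.

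Markers of some tissues moved with these groups. The summed level of 10 germline markers was 3660 to 4031 CPM in CF1038 with vector and 2259 to 2833 CPM with bcat-1 RNAi, against 1215 to 2633 and 1205 to 2785 CPM in TU3311, and 8 of 10 had a lower difference. The sum of 12 oocyte and eggshell markers was 17392 to 20305 CPM with CF1038 vector and 10857 to 13661 CPM with bcat-1 RNAi, against 11679 to 14784 CPM in all TU3311 libraries, and 10 of 12 were lower. The sum of 10 neuronal markers was 409 to 447 CPM, 505 to 513 CPM and 449 to 654 CPM, and 7 of 10 were higher. The sum of 6 pharyngeal markers was 67.9 to 96.1 CPM, 135 to 203 CPM and 101 to 205 CPM, and 5 of 6 were higher. No marker of body wall muscle (8 tested), sperm (9 tested) or coelomocytes (3 tested) passed, no marker was at 0 in all libraries, and 1 of 12 markers of embryos in the uterus was higher. Of 9 intestinal markers 2 were higher and 2 lower, and of 7 hypodermal markers 1 was higher and none lower. The part of tissue or embryo content in the differences was not tested.

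All 33 proteasome subunit genes tested had a lower difference, with a median of -0.58, for example the core subunits pas-2 (-0.74 ± 0.13) and pbs-4 (-0.69 ± 0.12). This count depended on the scaling, since 15 of 33 were lower in all 4, although the median was below 0 in each, from -0.78 to -0.34. In all 15 other settings that kept the pairs 2 were lower. Glycolysis and gluconeogenesis genes (11 of 25 lower), TCA and glyoxylate cycle genes (11 of 29 lower) and TOR pathway genes (7 of 20 lower) had none higher. The glyceraldehyde-3-phosphate dehydrogenase gpd-4 had -1.04 ± 0.15 and the malate dehydrogenase mdh-2 -0.89 ± 0.16. In all 4 scalings 5, 5 and 1 members of these 3 lists were lower, and in all 15 other settings that kept the pairs 2, 2 and 1. The mitochondrial chaperones hsp-60 (-1.21 ± 0.30) and hsp-6 (-0.86 ± 0.21) were among 6 of 18 mitochondrial stress and import genes that were lower, of which 1 was lower in all 4 scalings. Under upper-quartile factors 2 of the 18 were lower and 2 higher. Cytosolic ribosomal protein genes had 3 of 81 higher and a median of 0.06.

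Among 33 genes of branched-chain amino acid degradation, the pathway bcat-1 opens, 13 had a lower and 3 a higher difference, with a median of -0.38. The lower members were spread over the pathway and included bckd-1A of the ketoacid dehydrogenase (-0.55 ± 0.14), the enoyl-CoA hydratase ech-6 (-0.63 ± 0.12) and the hydrolase hach-1 (-0.70 ± 0.13). The acyl-CoA dehydrogenase acdh-2 was higher (1.69 ± 0.37), as was bcat-1 itself. In all 4 scalings 3 were lower and 1 higher.

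Among 28 genes of the dauer TGF-beta pathway and its relatives, the pathway of daf-7, 10 were higher and 3 lower. The guidance ligand unc-129 had 16, 13 and 21.6 CPM with CF1038 vector and 67.3, 99.9 and 68.3 CPM with bcat-1 RNAi, and in TU3311 each daf-7 RNAi library lay close to its partner. Its difference was 2.22 ± 0.28 (adjusted p = 0.00315). The BMP ligand dbl-1 was higher (0.85 ± 0.19) and the type II receptor daf-4 lower (-0.64 ± 0.17). The log2 responses of these 3 genes to daf-7 RNAi were between -0.13 and 0.17.

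Of 32 insulin-like peptide genes 13 were higher and 2 lower. The peptide gene ins-2 had a difference of 2.68 ± 0.33 and ins-7, an agonist of the receptor, one of -1.44 ± 0.25. Of 16 genes of insulin receptor signalling 7 were lower, among them the kinase akt-1 (-0.46 ± 0.13), and 2 of 16 were lower in all 4 scalings. Among 26 genes listed as classic DAF-16-activated genes 9 were higher and 2 lower. CF1038 lacks normal DAF-16 in both of its groups, and ins-7, known to be repressed by DAF-16, is also on that list.

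**Figure D3:**
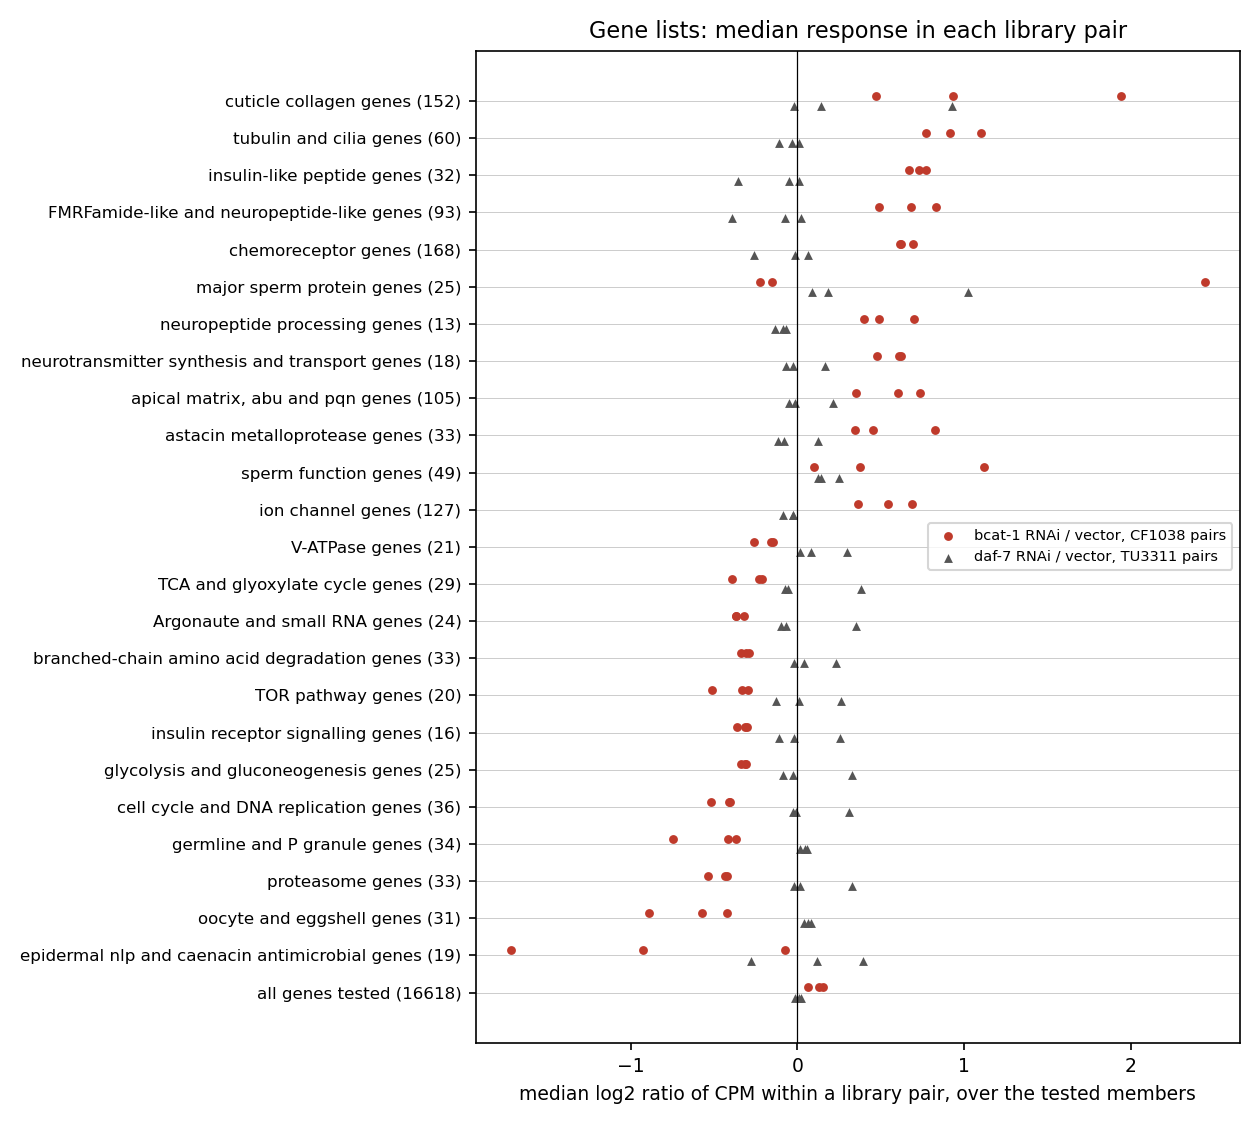
Median log2 ratio of CPM over the tested members of a gene list in each of the 6 library pairs (horizontal), for the 12 lists with the highest and the 12 with the lowest median difference, with the number of members in brackets. Red circles are CF1038 pairs and grey triangles TU3311 pairs; major sperm protein genes, of which none passed, owe their place to 1 CF1038 pair with a median of 2.45.

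For a small set of genes the larger response was that of TU3311. Among the 4349 called genes, the response was larger in size in TU3311 for 70, of which 43 had a higher and 27 a lower difference. Only 12 and 2 of them also changed with bcat-1 RNAi on its own, and in the same test lips-11 alone passed for daf-7 RNAi on its own. They were picked by the size of their daf-7 response, so that size is given as a description.

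The UDP-glucuronosyltransferase ugt-4 (WBGene00013905, V:12793014-12795336), of a family that conjugates toxins and hormones, had 7.38, 10.1 and 6.82 CPM with TU3311 vector and 2.85, 2.87 and 3.23 CPM with daf-7 RNAi. In CF1038 it had 3.81, 5.02 and 4.76 CPM with vector and 5.95, 5.98 and 5.52 CPM with bcat-1 RNAi. The groups did not overlap in either strain and lay in opposite order. The difference was 1.79 ± 0.25 (adjusted p = 0.00334), and neither response passed on its own.

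The ferritin gene ftn-1, which stores iron and is a known DAF-16 target, had 22.6, 22 and 9.65 CPM with TU3311 vector and 10.4, 8.54 and 5.57 CPM with daf-7 RNAi. In CF1038 it had 2.19, 3.04 and 5.30 CPM with vector and 3.42, 3.02 and 5.61 CPM with bcat-1 RNAi. Each TU3311 pair was lower with RNAi, and the CF1038 libraries lay between 2.19 and 5.61 CPM. The difference was 1.32 ± 0.24 (adjusted p = 0.00782).

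The DAF-16-activated gene dod-6 had 56.1, 35.5 and 26.3 CPM with TU3311 vector and 39.4, 23.7 and 16.7 CPM with daf-7 RNAi, against 14.6, 18.5 and 20 CPM and 22.9, 25.3 and 28 CPM in CF1038. All pairs of TU3311 were lower and all pairs of CF1038 higher with RNAi. Its difference was 1.11 ± 0.15 (adjusted p = 0.00331), and dod-3 had 1.47 ± 0.22 with responses of 0.94 and -0.53. The dehydrogenase gene dhs-26 had responses of -0.13 and -1.3 and a difference of 1.17 ± 0.26.

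The lower ones included vit-1, vit-3 and vit-4 of the vitellogenins, the yolk protein genes. Of the 10 genes listed as vitellogenin genes, 2 had a higher and 4 a lower difference. The vitellogenin vit-1 had 1222, 596 and 466 CPM with TU3311 vector and 1376, 854 and 830 CPM with daf-7 RNAi, and 779, 751 and 657 CPM with CF1038 vector and 708, 606 and 537 CPM with bcat-1 RNAi. Each pair was higher with RNAi in TU3311 and lower in CF1038, while the TU3311 groups overlapped. Its difference was -0.75 ± 0.17 (adjusted p = 0.0140), that of vit-3 -0.92 ± 0.21 and that of vit-4 -0.60 ± 0.18, whereas vit-2 had 0.56 ± 0.15. Vitellogenins resemble each other, and reads may be shared. The nematode-specific peptide gene nspc-17 had responses of -0.67 and 1.01 and a difference of -1.68 ± 0.23, and its near relative nspc-19 a difference of -1.38 ± 0.28.

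Genes shared by both responses were few. In the edgeR test as reported, lips-11 (WBGene00020472, II:1108841-1111001) was the only gene called in both, which is 1 of 7356 genes called for bcat-1 RNAi and 1 of 1 for daf-7 RNAi. It had 45.9, 58.4 and 62.8 CPM with CF1038 vector and 17.6, 21.9 and 23.7 CPM with bcat-1 RNAi. In TU3311 it had 172, 65.5 and 70 CPM with vector and 40.4, 8.91 and 14.7 CPM with daf-7 RNAi. It fell in all 6 pairs, and vector and RNAi libraries did not overlap in either strain. The log2 response was -1.4 ± 0.14 to bcat-1 RNAi (adjusted p = 0.000307) and -2.40 ± 0.15 to daf-7 RNAi (adjusted p = 0.000180). The fall was larger with daf-7 RNAi by 1.00 ± 0.20 (adjusted p = 0.0104), a difference that passed in 14 of 16 other settings. Without the pairing no gene was called for daf-7 RNAi, and none was shared (edgeR, 77 genes at an unadjusted p under 0.05 for daf-7 RNAi).

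Other genes were lower or higher in all 6 pairs without passing for daf-7 RNAi in the edgeR test as reported, and they were chosen after their values were seen. Besides lips-11, edgeR with no expression filter called F56D6.8, F56D6.9, W10G11.2, F28H7.3, cth-1 and spp-4 in both responses in the same direction. Without the third CF1038 pair it called dct-8, F56D6.8 and W10G11.2. Without the second TU3311 pair it called daf-7 itself as higher in both. The neighbours F56D6.8 (IV:3894058-3894430) and dct-8 (IV:3895070-3895506), the latter named as a daf-16-controlled gene of germline tumours, were both called in both responses by limma voom and by DESeq2. For dct-8 the CF1038 vector libraries had 6.23, 4.31 and 7.10 CPM and the bcat-1 RNAi libraries 0.886, 0.662 and 3.05 CPM, while in TU3311 it went from 82.3, 24.9 and 34.8 CPM to 35, 7.14 and 12 CPM. All 6 pairs were lower with RNAi, at levels that were lower in CF1038 throughout. Its responses were -2.1 ± 0.29 (adjusted p = 0.00112) and -1.51 ± 0.24 (adjusted p = 0.147), with a difference of -0.59 ± 0.37 (adjusted p = 0.254). Those of F56D6.8 were -2.0 and -1.29.

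The carnitine palmitoyltransferase cpt-4 was lower in all 6 pairs as well, but its responses of -2.43 and -0.91 differed (-1.51 ± 0.26, adjusted p = 0.00684). On the rising side, the saposin-like spp-4 had responses of 1.18 ± 0.18 and 0.88 ± 0.17. The cystathionine gamma-lyase gene cth-1, which makes cysteine from cystathionine, had 94.9, 32.6 and 46.6 CPM with CF1038 vector and 138, 60.4 and 64.3 CPM with bcat-1 RNAi, and 64.7, 49.3 and 23.8 CPM with TU3311 vector and 86.7, 76.4 and 40.8 CPM with daf-7 RNAi. It was higher with RNAi in all 6 pairs although the groups overlapped in both strains. Its responses were 0.63 ± 0.11 (adjusted p = 0.00285) and 0.61 ± 0.11 (adjusted p = 0.264), and their difference was 0.02 ± 0.16 (adjusted p = 0.930).

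**Figure D4:**
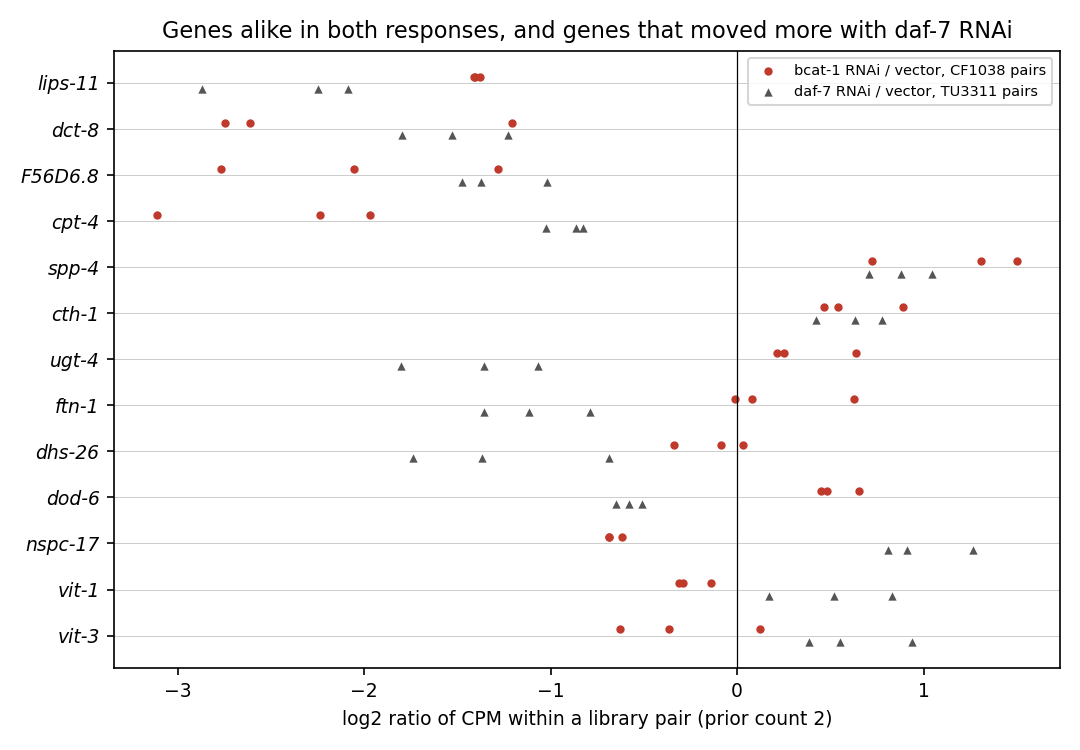
Log2 ratio of CPM in each of the 6 library pairs (horizontal) for 6 genes that moved the same way in both strains (lips-11 to cth-1) and 7 genes whose daf-7 response was the larger one (ugt-4 to vit-3). Red circles are CF1038 pairs and grey triangles TU3311 pairs; all pairs of lips-11 lie below 0, and those of ugt-4, dod-6 and nspc-17 lie on opposite sides of 0.

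No gene passed in both responses in opposite directions in the edgeR test as reported, while DESeq2 called 10 such genes, cpr-2, tre-5 and gfi-1 among them, and edgeR with no expression filter 8. Among 498 genes with an unadjusted p under 0.05 for daf-7 RNAi, 153 (30.7%) were called in the opposite direction for bcat-1 RNAi and 89 (17.9%) in the same direction, beside 44.3% of all genes called for bcat-1 RNAi. These 498 genes are a smaller share of those tested than the 0.05 that would pass with no response, and the split is given as a description. The trehalase tre-5 had responses of 1.06 and -0.90 (difference 1.95 ± 0.22, adjusted p = 0.00232), and gfi-1 had -1.11 and 0.89 (-2.0 ± 0.25, adjusted p = 0.00303). Both, like cpr-2, had all CF1038 pairs on one side of 0 and all TU3311 pairs on the other. This held for 721 (29%) of the 2490 higher and 438 (23.6%) of the 1859 lower genes, beside 6.31% and 4.12% of all tested genes with the CF1038 pairs above and below 0. The called genes were picked by their difference, which favours opposite signs, so these shares are a description only. The pairs of the strains did not overlap in 47.9% of all tested genes.

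The differing genes were unevenly spread over reads and chromosomes. Counted by mean CPM, which reflects reads and not level per length, 28.3% of genes from 1 to 5 CPM were higher and 1.43% lower, whereas from 100 CPM upwards 2.92% were higher and 40.6% lower. On the X chromosome 20.8% of tested genes were higher and 5.05% lower, and on the autosomes 11.3% to 17.3% were higher and 8.61% to 15.6% lower. The X had the highest share of higher genes and the lowest share of lower genes under each of the 4 scalings, from 14.3% to 31.4% higher. Pseudogenes (22.2% higher, 0.741% lower of 675) and long intergenic RNAs (25.9% higher of 58) were mostly on the positive side, and protein-coding genes had 14.6% higher and 11.8% lower.

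**Figure D5:**
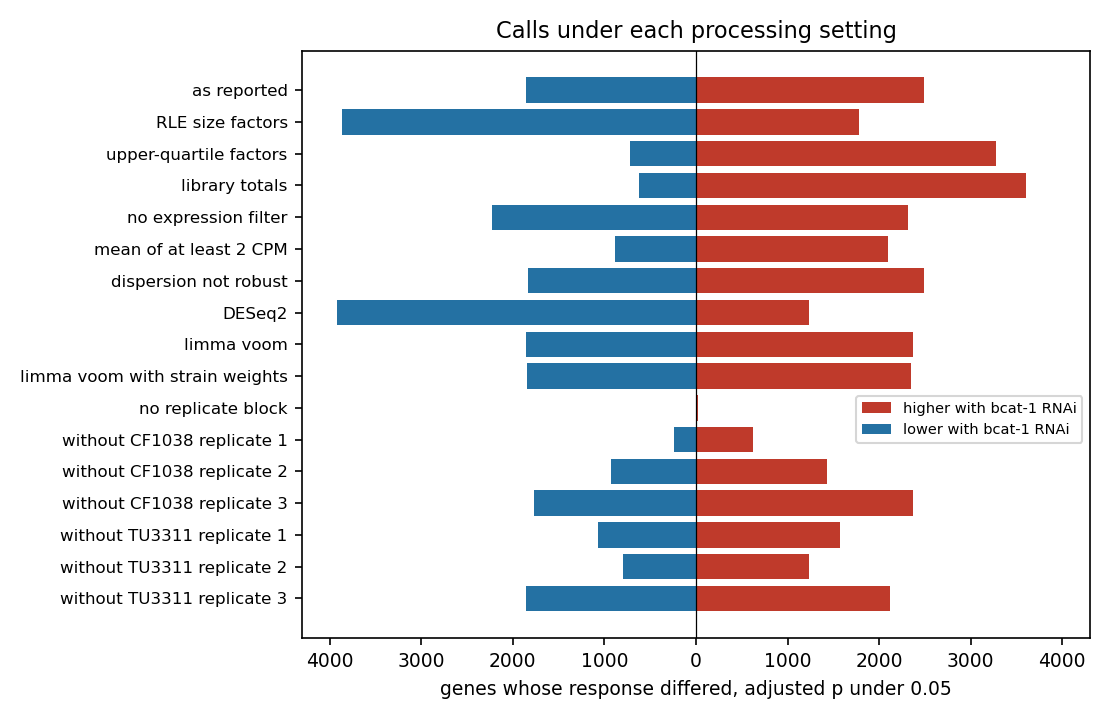
Number of genes whose response differed at an adjusted p under 0.05 under each processing setting (horizontal, higher to the right and lower to the left of 0). As reported, 2490 genes were higher and 1859 lower; 17 and 1 remained without the pairs, and RLE size factors and library totals shifted the balance in opposite directions.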

How the data were processed

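Per the labels' protocols, total RNA of whole worms was turned into sequencing libraries with TruSeq v2 kits. The counts used here were deposited as whole numbers per gene for each library. The submitters' processing notes list the tools featureCounts 1.4.6-p4, STAR 2.4.1d and bcl2fastq 1.8.4, and WBcel235 as the build. Strand setting and treatment of reads with several matches are not given in the sources used here, so antisense, overlapping and near-identical genes are uncertain. The deposited RPKM values and promoter sequences were not used here.

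Counts were tested with edgeR 4.0.16 (limma 3.58.1, R 4.3.3) by the two-sided quasi-likelihood F test with robust dispersion, TMM factors and the default expression filter by group. All 12 libraries entered 1 fit with 6 pairs as blocks and 1 term for each RNAi, which left 4 residual degrees of freedom. Adjusted p-values are Benjamini-Hochberg over all 16618 genes. SEs were computed back from the test as the log2 change over the square root of F. CPM are TMM-scaled, and log2 ratios of pairs used a prior count of 2. Deviations from group means correlated within neighbouring library numbers at 0.158 to 0.398 in CF1038 and 0.504 to 0.892 in TU3311, each over 0.1 and above the libraries' other correlations within the strain, so the pairing rests on the values. On simulated data for this difference (16575 genes), 36 of 50 genes changed 2-fold up and 33 of 50 changed 2-fold down were recovered, with all 50 at 4-fold in each direction and 7 false calls. Only these genes were changed, as many up as down and none of the lowest levels. The simulation therefore cannot show how many calls in the real data, where many genes changed, depend on the scaling.

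Of the identifiers 46449 matched the annotation that gave names and coordinates. The genes named are those the labels name, the 15 widest differences in each direction (called, mean of at least 2 CPM, pairs not overlapping), up to 4 called members of each list by p, up to 5 genes by p in each direction, and genes called in both responses. Other list members and shared or opposite genes given as examples were chosen after their values were seen. Members and lists were chosen with earlier results of these data known, and some list memberships were corrected after values were seen. Alternatives were other scalings, filters and tools (DESeq2 1.42.0, limma voom), no pairing, and leaving out each pair.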

Additional observations from a re-analysis of the deposited data

Results flagged for a closer look

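In 9 of the widest differences, all 3 CF1038 pairs moved one way and all 3 TU3311 pairs the other, and the test of the difference passed. RNAi target, strain and whatever the title numbers stand for cannot be told apart in them. The log2 difference was 5.53 for cpr-2, 3.33 for fmo-2, 3.12 for C05C12.1 and 2.78 for hmg-6. It was -3.77 for ora-1, -3.43 for hmit-1.1, -3.08 for C45B2.1, -2.98 for srlf-34 and -2.34 for irg-5. The response to daf-7 RNAi did not pass on its own for any of these 9 genes in the edgeR test as reported. It passed for cpr-2 in edgeR with no expression filter, and for cpr-2 and fmo-2 in DESeq2.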

How the results depend on the processing

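As reported, 4349 genes had a differing response, 7356 changed with bcat-1 RNAi, 1 with daf-7 RNAi and 1 in both. With the replicate block removed, these counts were 18, 718, 0 and 0. Restricting to a mean of at least 2 CPM gave 4850 genes for bcat-1 RNAi. The count for daf-7 RNAi was 28 with no expression filter, 34 with DESeq2 and 7 with limma voom with and without strain weights, and the count in both was 15, 21 and 3. Leaving out 1 pair at a time gave 859 to 4136 differing genes, 3393 to 8329 for bcat-1 RNAi, 1 to 5 for daf-7 RNAi and 1 to 4 in both. A library without its partner carries no information in the paired fit, so single libraries were not left out. DESeq2 called 1234 higher and 3921 lower differences, and upper-quartile factors 3276 and 722. The median log2 difference of all genes was 0.15 as reported, -0.05 under RLE size factors, 0.32 under upper-quartile factors and 0.38 under library totals; lists with medians near these values changed side. Of 4305 values of 271 named genes under the alternatives, 3701 kept direction and side of the threshold, 591 kept direction and no longer passed, and 7 came to pass. Direction turned for sid-1 with library totals (0.0007) and for cth-1 with RLE factors (-0.18), DESeq2 (-0.18), no expression filter (-0.032), without the second CF1038 pair (-0.11) and without the first TU3311 pair (-0.042), with a range of -0.11 to 0.097 over the pairs left out. The cause of these changes was not tested. Of the genes called, 551 higher and 223 lower stayed called when each pair was left out in turn. Promoter motifs were not run.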
